A study of Homo sapiens with 12 samples.

Results

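Long intergenic noncoding RNAs with a LINC symbol were described here in LS180 cells, an established line from a human colorectal cancer with mucin production. The genes were chosen by a rule that used only their name and their abundance. It took those whose symbol is LINC followed by digits and whose raw count averaged 100 or more over the 12 libraries. The rule kept 70 of 2271 genes with such a symbol, out of 60671 genes counted. Of the remaining LINC genes, 1268 had no count in any library. Just inside the threshold lay LINC00239 with a mean of 112.9 counts, LINC02038 with 109.2 and LINC01637 with 102.4, and just outside it lay LINC03046 with 96.2, LINC02894 with 95.8 and LINC01560 with 93.8. Mean abundance was therefore fixed by the choice and is given as a description. The rule made no use of the responses to induction, but it was set with earlier results of these data known.

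The libraries form 6 groups of 2, all of poly(A)-selected RNA from LS180 derivatives that carry a doxycycline-inducible construct. The groups are the line with V5-tagged wild-type SOX9 with and without doxycycline, the line with V5-tagged M303, a truncated SOX9, with and without doxycycline, and the line with a GFP control, with and without doxycycline. Doxycycline was given at 0.5 µg/ml for 24 h. Each construct sat in its own line, so a construct cannot be told apart from the line that carries it, and nothing states whether a line is 1 clone or whether duplicates came from separate cultures. P-values therefore measure only the spread between these libraries, which may be technical.

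Long intergenic noncoding RNAs are transcribed by RNA polymerase II, usually spliced and polyadenylated, and carry no long conserved reading frame. They tend to be less abundant and more restricted to certain tissues than mRNAs, and some act on genes near their own site of transcription while others act elsewhere in the cell. SOX9, the induced factor, is a high-mobility-group transcription factor of intestinal crypt stem and Paneth cells that binds DNA at sites related to ACAAAG and ACAATG. The comparisons ask which of these RNAs moved when SOX9, its truncated form or GFP was induced, and whether the coding gene next to each moved alike.

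The induced gene and the tissue were checked first. SOX9 had 712 and 761 CPM (counts scaled to a library total of 1000000) in SOX9-induced libraries, against 357 and 381 CPM in the uninduced libraries of that line. With M303 induced it had 818 and 867 CPM, against 399 and 367 CPM without doxycycline. In the GFP line it had 405 and 371 CPM with doxycycline and 399 and 392 CPM without. All 12 intestinal epithelium markers averaged above 1 CPM, while 0 of 6 fibroblast, 0 of 4 endothelial and 0 of 4 neuronal markers did. Of the 12 intestinal markers 7 were called lower and 0 higher on SOX9 induction (edgeR), among them MUC2, a goblet cell mucin (log2 fold change -1.54), KRT20, a keratin of differentiated cells (-1.60), and LGALS4, an intestinal galectin (-0.67). The summed level of the 12 was 10805 to 10836 CPM in SOX9-induced libraries and 11786 to 13340 CPM in the other 10. Of 6 blood and immune markers, LYZ and CD14 exceeded 1 CPM, and CD3E, a defining T cell gene, was listed at 0 in every library. The summed level of that list was 581 to 594 CPM in SOX9-induced libraries and 41.2 to 59.9 CPM in all others. LYZ, which encodes lysozyme and is also a Paneth cell product, is in that list. The part of the intestinal and blood lists in the results below was not tested.

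The promoters of LINC genes that moved on SOX9 induction are shown for 2 of the 5 called genes described below, because LINC00261 was the only one of 4 windows with a match to the SOX-type letters and LINC00511 had the most counts. Each is the RefSeq window of 300 bases, from 250 bases before the start to 50 after it, on the gene's own strand in GRCh38.p14, printed 5′ to 3′. The first is chr20:22578593-22578892 on the minus strand and the second is chr17:72640423-72640722 on the minus strand. Capitals mark ACAAAG or ACAATG on either strand, so that the reverse complements CTTTGT and CATTGT are also in capitals.
LINC00261: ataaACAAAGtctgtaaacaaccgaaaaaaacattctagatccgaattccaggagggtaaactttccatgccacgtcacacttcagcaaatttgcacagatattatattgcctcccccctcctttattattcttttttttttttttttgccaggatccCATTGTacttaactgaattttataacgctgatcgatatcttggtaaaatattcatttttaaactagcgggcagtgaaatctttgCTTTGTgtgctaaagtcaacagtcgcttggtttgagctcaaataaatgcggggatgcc
LINC00511: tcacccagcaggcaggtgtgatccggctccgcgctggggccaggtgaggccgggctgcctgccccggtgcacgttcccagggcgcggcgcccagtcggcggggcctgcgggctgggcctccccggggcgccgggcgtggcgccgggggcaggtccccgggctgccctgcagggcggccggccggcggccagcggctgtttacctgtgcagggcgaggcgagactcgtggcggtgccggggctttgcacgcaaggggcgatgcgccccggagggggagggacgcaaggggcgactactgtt
The LINC00261 window held 3 matches, 2 of ACAAAG and 1 of ACAATG, with first bases 246, 92 and 8 bases before the start and with no overlap between them. The windows of LINC00511, LINC00920 and LINC01322 held none, which says only that these letters are not in these windows. For LINC02672 the RefSeq set held no window, so its promoter was not read. Over 34943 RefSeq promoter windows of the same length, 24.5% held at least 1 match and 0.796% held at least 3. The LINC00261 window is 37.0% G and C. Among windows under 50% G and C, 40.6% held at least 1 match, against 17.4% of the others. The share with at least 3 matches was 1.89% among windows under 50% G and C. No share was computed for windows as low in G and C as that of LINC00261. Of the 51 LINC genes with a window, 12 held a match, which is 23.5% and close to the share over all windows.

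The 70 genes lay on 21 chromosomes, with 8 of them on chromosome 2. Their summed exon length ranged from 301 to 33198 bases with a median of 4615.5, against 5093 bases for tested coding genes. They had a median of 4 exon blocks, and 10 had 1 block. The name did not always match the position. The body of 33 genes overlapped another gene, 29 of them on the opposite strand, and 22 shared exonic bases with another gene. A coding gene's body was overlapped by 8 of them and coding exons by 4, which were LINC00960 with ZNF717, LINC00667 with ZBTB14, LINC00294 with TCP11L1 and CSTF3, and LINC01232 with TM9SF2. GENCODE release 29 filed 54 of the 70 as lincRNA, 7 as processed transcript, 3 as antisense and 2 as protein-coding. The 2 filed as protein-coding are LINC03040 and LINC02693. Reads were counted without regard to strand and reads that fall in exons of several genes were not counted, so the level of an overlapping gene may include RNA of the other strand or miss reads it shares.

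Abundance was low and uneven. Per kilobase of exon, the mean levels had a median of 1.92 CPM per kb and ran from 0.232 to 46.1, against a median of 7.76 CPM per kb for the 10850 coding genes that also averaged 100 counts or more. Not corrected for length, 21 LINC genes stood at 10 CPM or more and 28 under 5 CPM, which sets how well each was counted. Within a gene, the highest library stood at a median of 1.69 times the lowest. The steadiest by this ratio was LINC02418, at 19.7 to 23.9 CPM, and the most variable was LINC01322, at 2.45 to 6.37 CPM.

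LINC02582 led in counts, and also per kilobase of exon with 46.1 CPM per kb. It had 111 and 108 CPM in SOX9-induced libraries, against 111 and 112 CPM in uninduced SOX9-line libraries. In the M303 line it had 123 and 119 CPM with doxycycline and 120 and 110 CPM without. In the GFP line it had 114 and 106 CPM with doxycycline and 110 and 134 CPM without. The groups differed by less than the spread of the uninduced GFP duplicates. Its nearest coding gene is NETO1, an accessory subunit of neuronal glutamate receptors, 456.8 kb away, which had at most 2 counts in a library.

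Next in CPM, which is not corrected for length, came LINC03061 at 46.9 CPM, LINC01088 at 41.9, LINC03040 at 40.3, LINC00511 at 37.3 and LINC00963 at 31.5. LINC02418 at 22.2 CPM, LINC01224 at 21.1, LINC02967 at 19.5 and LINC02693 at 18.9 completed the 10 with the highest CPM. Of these 10, LINC00511 passed the test of a comparison and the others passed none. Their nearest coding genes ranged from hardly counted to well counted. KCNJ12, a potassium channel beside LINC02693, FZD10, a WNT receptor beside LINC02418, CST7, a cystatin beside LINC02967, and MYO16, a myosin beside LINC03061, each had a mean under 0.1 CPM. The mitoribosomal gene MRPL14 beside LINC03040 averaged 45.1 CPM, the methyltransferase gene NTMT1 beside LINC00963 averaged 39.5 CPM, and the zinc-finger gene ZNF91 beside LINC01224 averaged 32.7 CPM. NAA11, an acetyltransferase gene whose body LINC01088 overlaps, averaged 0.252 CPM.

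Per kilobase of exon the order changed. After LINC02582 came LINC02967 with 17 CPM per kb, LINC03078 with 14.1, LINC02672 with 10.4, LINC03061 with 9.23 and LINC03040 with 7.23. LINC02303 with 6.96 CPM per kb, LINC01956 with 6.57, LINC01315 with 5.97 and LINC00674 with 5.67 followed. LINC00511 ranked 42 on this scale with 1.35 CPM per kb, because its annotated exons sum to 27654 bases. LINC01956 lies 7.061 kb from EN1, a homeobox gene, LINC03078 lies 22.256 kb from CD177, a neutrophil surface gene, and LINC01315 lies 11.123 kb from NFAM1. The log2 fold changes on SOX9 induction of these 3 LINC genes were 0.08, 0.31 and -0.01, and those of their coding neighbours in the same order were 0.19, 0.10 and 0.05. None of the 6 passed the test.

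**Figure D1:**
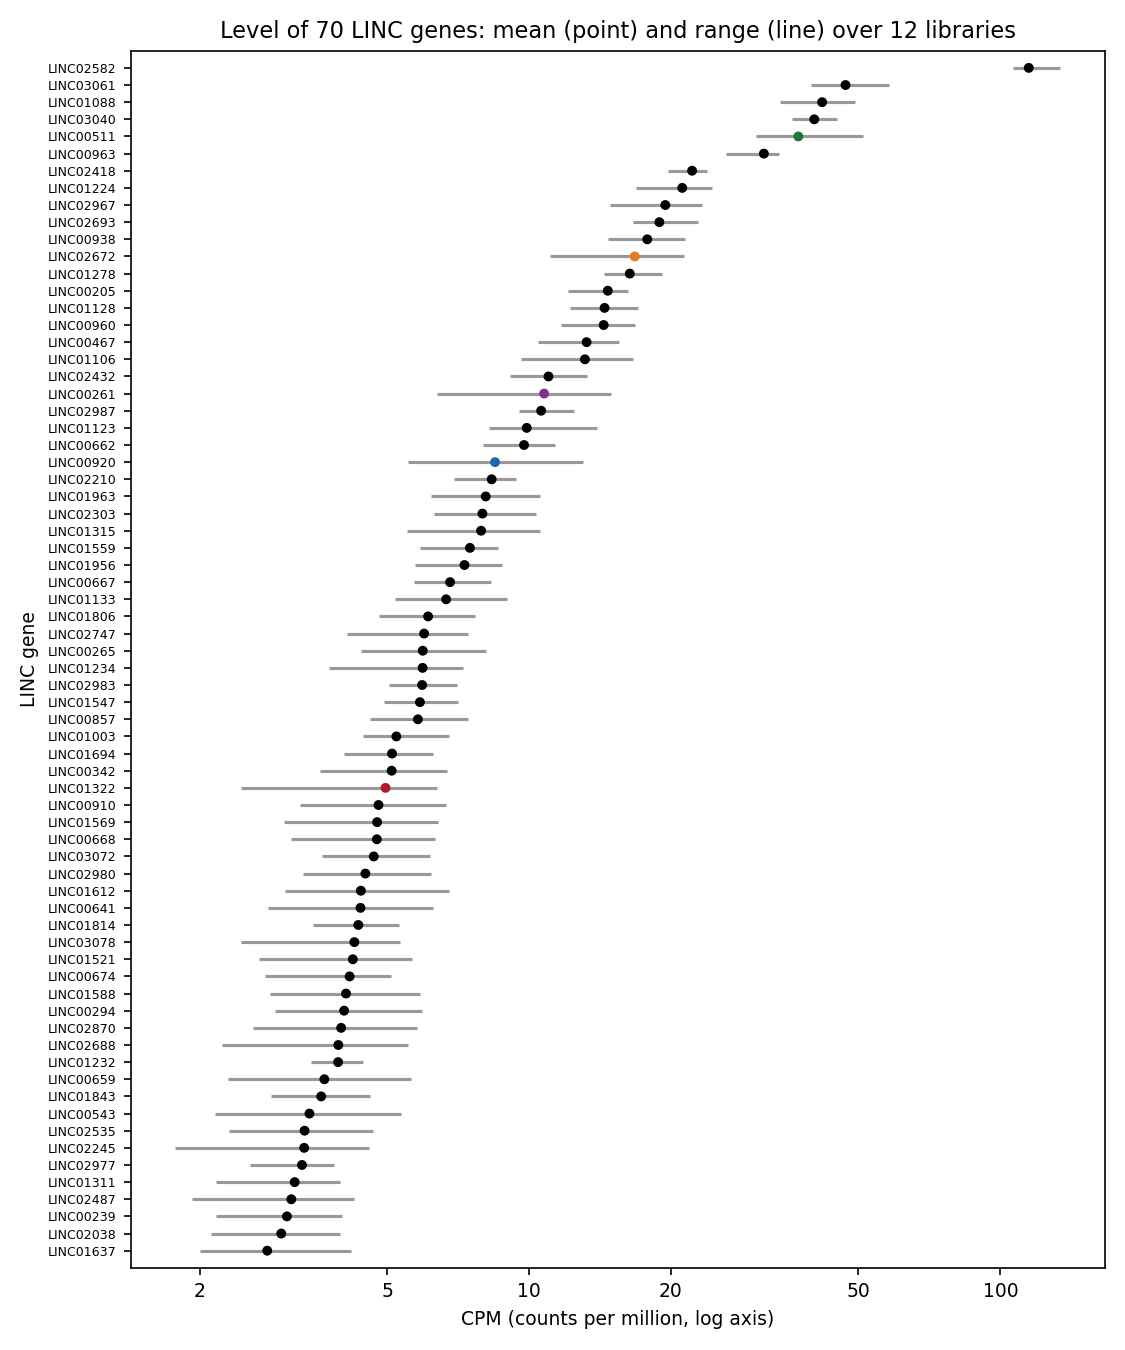
Mean level (point) and range from the lowest to the highest of 12 libraries (line) for each of the 70 LINC genes, in CPM on a log axis. Coloured points are the 5 genes called for SOX9 induction. LINC02582 stands apart at a mean of 114.9 CPM, which is not corrected for length, and 28 genes lie under 5 CPM.

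The summed level of the 70 genes varied little between groups. It was 794 and 776 CPM in SOX9-induced libraries, against 818 and 799 CPM in uninduced libraries of that line, a log2 ratio of -0.04. The sum was 802 and 802 CPM with M303 induced, against 808 and 815 CPM without doxycycline. The GFP line had 800 and 805 CPM with doxycycline and 788 and 833 CPM without. For SOX9 and for M303 the induced libraries lay below the uninduced ones (two-sided exact permutation p = 0.33 for each, the smallest that 2 libraries against 2 can give), and for GFP they lay within the uninduced range. LINC02582 contributed 13.2% to 16.1% of the sum of a library, and the 10 highest genes together 47.9% to 51.2%.

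On induction of wild-type SOX9, 5 of the 70 LINC genes were called. LINC00511 and LINC00920 rose and LINC01322, LINC02672 and LINC00261 fell. A call required an adjusted p under 0.05 (Benjamini-Hochberg) in the quasi-likelihood F-test of edgeR, fitted on all 12 libraries and adjusted over all 18219 genes tested. All 70 LINC genes passed the filter on low counts. With 1 library left out, 2 to 5 were called. The count was 2 without replicate 1 and also without replicate 2 of the induced SOX9 group, and 3 without replicate 1 of the uninduced SOX9 group. The share called was 7.14%, against 2.97% of all genes tested (1.81% higher and 1.16% lower) and 4.42% of genes that averaged 100 counts or more. The difference between these shares was not tested. At an unadjusted p under 0.05 stood 12 LINC genes, where 13.8% of all genes did. The median log2 fold change was -0.04 over the LINC genes and 0.01 over all genes, with 28 values above and 42 below 0. Induced and uninduced duplicates did not overlap for 34 LINC genes, which is 48.6%, against 44.7% of all genes. The median standard error was 0.22 over the 70 genes, 0.26 for the 31 genes under 200 counts and 0.13 for the 16 genes with 500 or more, so the changes of the scarcer genes were measured less precisely.

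**Figure D2:**
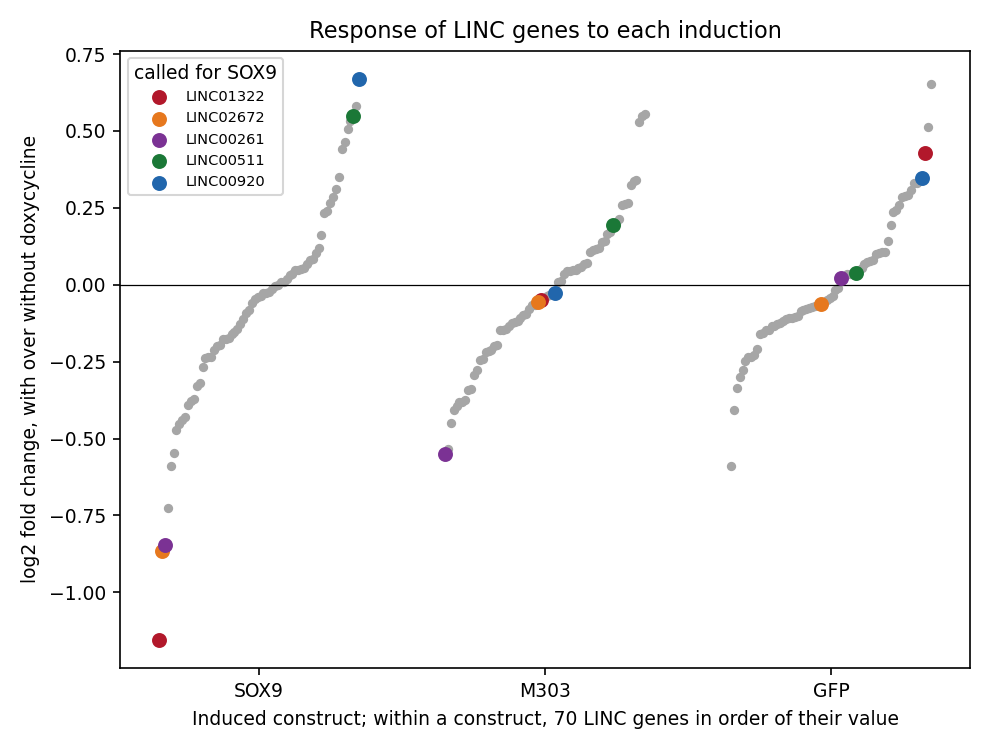
The log2 fold change with over without doxycycline of each of the 70 LINC genes on induction of SOX9, M303 and GFP, in order of value within each construct. Coloured points are the 5 genes called for SOX9, which reach -1.15 for LINC01322 and 0.67 for LINC00920. None was called for M303 or GFP.

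LINC00511 is a spliced noncoding RNA described as raised in several kinds of carcinoma. It is annotated on chromosome 17 from 72290091 to 72640472 on the minus strand (GRCh38), 163.7 kb from SOX9 itself. LINC00511 had 51.2 and 48.4 CPM in SOX9-induced libraries, against 34.7 and 33.4 CPM in uninduced SOX9-line libraries. Both induced values lay above those of all 10 other libraries, which ran from 30.3 to 38.8 CPM. The log2 fold change was 0.55 (SE 0.10, adjusted p = 0.00266, edgeR). With M303 induced it had 38.8 and 36.2 CPM, against 35.4 and 30.3 CPM without doxycycline (log2 fold change 0.19, adjusted p = 1.00, edgeR). In the GFP line it had 34.4 and 36.0 CPM with doxycycline and 32.4 and 36.1 CPM without. Without replicate 1 of the induced SOX9 group its adjusted p was 0.0655 (edgeR). Of 10 genes tested within 1 Mb of it, SOX9 alone was called, whose counts do not separate the induced construct from the gene at this site. Its body overlaps 3 genes on the opposite strand, 1 of them in exons.

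LINC02672 lies on chromosome 10 from 52972612 to 53030024 on the minus strand and overlaps no other gene. It had 11.3 and 11.1 CPM in SOX9-induced libraries, against 21.3 and 19.4 CPM in uninduced libraries of that line. The other 8 libraries ran from 16.4 to 18.3 CPM, so the induced SOX9 libraries were the lowest of all and the uninduced ones the highest. The log2 fold change was -0.87 (SE 0.13, adjusted p = 1.83e-04, edgeR), the smallest adjusted p among the LINC genes. This call held when any of the 12 libraries was left out, with log2 fold changes of -0.93 to -0.80.

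LINC00261, also known as DEANR1, is a noncoding RNA of endoderm that is known in human stem cells to take part in the activation of FOXA2. It lies on chromosome 20 from 22547671 to 22578642 on the minus strand and overlaps no other gene. LINC00261 had 6.37 and 6.50 CPM in SOX9-induced libraries, against 12.8 and 10.3 CPM in uninduced SOX9-line libraries (log2 fold change -0.85, SE 0.17, adjusted p = 0.00584, edgeR). With M303 induced it had 9.03 and 8.91 CPM, against 15.0 and 11.4 CPM without doxycycline. These M303 groups did not overlap either, and the log2 fold change was -0.55 (95% CI -0.90 to -0.20, adjusted p = 1.00, edgeR). In the GFP line it had 11.5 and 13.2 CPM with doxycycline and 12.3 and 11.96 CPM without. The SOX9 call was lost without replicate 1 of the induced SOX9 group (adjusted p = 0.0744, edgeR), without its replicate 2 (adjusted p = 0.0529) and without replicate 1 of the uninduced group (adjusted p = 0.0732).

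LINC01322 lies on chromosome 3 from 165206929 to 165846519 on the plus strand. It had 2.86 and 2.45 CPM in SOX9-induced libraries, against 5.91 and 5.97 CPM in uninduced libraries of that line (log2 fold change -1.15, SE 0.23, adjusted p = 0.00444, edgeR). The other 8 libraries ran from 4.30 to 6.37 CPM. With M303 it had 4.63 and 5.38 CPM induced and 4.30 and 6.02 CPM uninduced, and with GFP it had 6.37 and 6.23 CPM induced and 4.74 and 4.63 CPM uninduced. The GFP pair thus did not overlap, with the induced libraries above (log2 fold change 0.43, adjusted p = 1.00, edgeR). Its lowest library held 78 counts, and without replicate 2 of the induced SOX9 group the adjusted p for SOX9 was 0.0857.

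LINC00920 lies on chromosome 16 from 66408524 to 66412135 on the plus strand. It had 13 and 11.1 CPM in SOX9-induced libraries, against 7.57 and 7.60 CPM in uninduced libraries of that line (log2 fold change 0.67, SE 0.18, adjusted p = 0.0430, edgeR). The M303 line had 9.29 and 7.59 CPM with doxycycline and 9.36 and 7.89 CPM without. The GFP line had 8.14 and 7.66 CPM with doxycycline and 5.52 and 6.88 CPM without, a log2 fold change of 0.35 (adjusted p = 1.00, edgeR). This was the least stable call. It was lost when any of 6 libraries was left out, with an adjusted p of up to 0.401 without replicate 1 of the induced SOX9 group, where the log2 fold change was 0.54. The other 5 of these libraries were replicate 2 of the induced SOX9 group (adjusted p = 0.110, edgeR), replicates 1 and 2 of the uninduced SOX9 group (0.140 and 0.204) and replicates 1 and 2 of the uninduced M303 group (0.0505 and 0.0512).

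**Figure D3:**
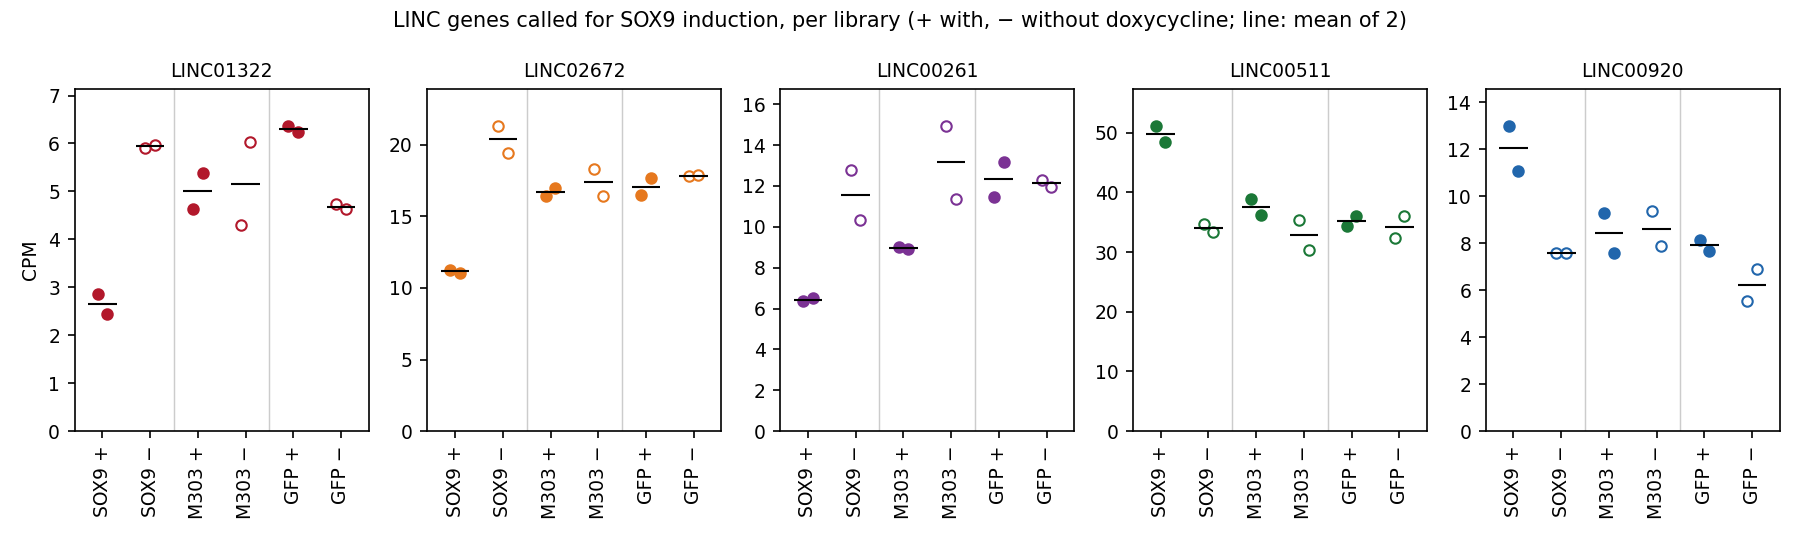
Level in CPM of the 5 LINC genes called for SOX9 induction, in each library (filled points with, open points without doxycycline) with the mean of each pair as a line. In the SOX9 line the filled points lie below the open ones for LINC01322, LINC02672 and LINC00261 and above them for LINC00511 and LINC00920.

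Further down the order, the next values did not pass the test. LINC02688 had 2.23 and 2.89 CPM in SOX9-induced libraries, against 4.60 and 3.80 CPM in uninduced ones (log2 fold change -0.72, SE 0.26, adjusted p = 0.176, edgeR). LINC01588 stood at -0.59 and LINC01133 at -0.55. On the other side were LINC02487 at 0.58, LINC01612 at 0.53, LINC00674 at 0.51 and LINC01637 at 0.46, with standard errors of 0.24 to 0.32. The adjusted p of these 7 genes ranged from 0.176 to 0.562 (edgeR). Among the 291 LINC genes under 100 counts that could be tested, 0 were called for SOX9 by edgeR and 0 by DESeq2, where 165 had no adjusted p, and 21 had an unadjusted p under 0.05, which is 7.22%, against 13.8% of all genes.

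For M303, the truncated SOX9, 0 of 70 LINC genes were called, where 0.00549% of all genes tested were. Unadjusted p was under 0.05 for 4 LINC genes, against 3.63% of all genes, and DESeq2 also called 0. Beside LINC00261, the lowest log2 fold changes were -0.53 for LINC00543 and -0.45 for LINC02870, and the highest were 0.56 for LINC00668, 0.55 for LINC02487 and 0.53 for LINC02980. LINC02487 thus had similar values for SOX9 (0.58) and M303 (0.55), each with a standard error of 0.32. Groups did not overlap for 28 LINC genes, which is 40.0%, against 33.8% of all genes.

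Doxycycline in the GFP line was the control for the drug and for induction as such. Of the 70 LINC genes 0 were called, where 0% of all genes tested were, 3 had an unadjusted p under 0.05, against 3.18% of all genes, and DESeq2 called 0. LINC01315 had the highest value, with 9.41 and 10.5 CPM in GFP-induced libraries, against 7.23 and 5.49 CPM in uninduced ones (log2 fold change 0.65, SE 0.21, adjusted p = 1.00, edgeR). LINC00543 at 0.51 and LINC01322 at 0.43 came next, and LINC01521 at -0.59, LINC01814 at -0.41 and LINC00641 at -0.34 were the lowest. Groups did not overlap for 23 LINC genes, which is 32.9%, against 27.4% of all genes.

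The difference between inductions was tested as an interaction term. For SOX9 against M303 the response of 1 LINC gene differed, where 0.489% of all genes did, and 6 LINC genes had an unadjusted p under 0.05, against 6.99% of all genes. The called gene was LINC02672, whose response was lower by -0.81 on the log2 scale (SE 0.18, adjusted p = 0.0371, edgeR), since it stood at -0.87 for SOX9 and at -0.06 for M303. The call was lost when any of the 8 libraries of these 4 groups but replicate 2 of the uninduced SOX9 group was left out, with an adjusted p of 0.0771 to 0.256. For SOX9 against GFP the responses of 2 LINC genes differed, where 0.895% of all genes did, and 7 had an unadjusted p under 0.05, against 9.01% of all genes. LINC01322 differed by -1.58 (SE 0.31, adjusted p = 0.0113, edgeR) and LINC02672 by -0.80 (SE 0.18, adjusted p = 0.0257, edgeR). LINC01322 was lost without replicate 2 of the induced SOX9 group (adjusted p = 0.0798, edgeR) or replicate 2 of the uninduced GFP group (adjusted p = 0.0570). From M303, LINC01322 differed by -1.10 (95% CI -1.76 to -0.45, adjusted p = 0.217, edgeR), which did not pass the test, and its GFP value of 0.43 adds to the difference from GFP. Against GFP, LINC02672 was lost without any of the 8 libraries but replicate 2 of the uninduced SOX9 group and replicate 1 of the induced GFP group (adjusted p of 0.0596 to 0.138). Neither difference of the remaining 3 genes called for SOX9 passed the test of edgeR, and DESeq2 called 1 of them, for LINC00261. For LINC00511 the differences were 0.36 (95% CI 0.06 to 0.66, adjusted p = 0.591, edgeR) from M303 and 0.51 (95% CI 0.21 to 0.81, adjusted p = 0.145) from GFP. For LINC00261 they were -0.30 (95% CI -0.79 to 0.20, adjusted p = 0.900, edgeR) from M303 and -0.87 (95% CI -1.36 to -0.37, adjusted p = 0.122) from GFP, and DESeq2 called the difference from GFP (adjusted p = 0.0474), as did edgeR without a filter on low counts (adjusted p = 0.0388). LINC00920 differed by 0.70 from M303 (adjusted p = 0.491, edgeR) and by 0.32 from GFP (adjusted p = 0.777). For M303 against GFP 0 LINC genes were called by edgeR and 0 by DESeq2, where 0.00549% of all genes were called by edgeR, and 5 LINC genes had an unadjusted p under 0.05, against 3.94% of all genes.

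The uninduced lines were compared to see whether the constructs had changed these RNAs before doxycycline. In the uninduced SOX9 line against the uninduced GFP line 0 LINC genes were called, where 0% of all genes were, and 3 had an unadjusted p under 0.05, against 4.75% of all genes. In the uninduced M303 line against the uninduced GFP line 0 were called, where 0.00549% of all genes were, and 6 had an unadjusted p under 0.05, against 6.09% of all genes. DESeq2 called 0 in both. LINC00920 was at 9.36 and 7.89 CPM in the uninduced M303 line, against 5.52 and 6.88 CPM in the uninduced GFP line (log2 fold change 0.47, adjusted p = 0.799, edgeR), beside a log2 fold change of 0.67 for its response to SOX9.

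Coding genes next to the 5 called LINC genes were not called. FOXA2, a pioneer factor of endoderm, lies on the same strand upstream of LINC00261, with 2363 bases between the gene bodies. FOXA2 had 22.6 and 24.2 CPM in SOX9-induced libraries, against 21.6 and 24.4 CPM in uninduced ones, a log2 fold change of 0.02 (95% CI -0.23 to 0.27, adjusted p = 0.968, edgeR). LINC00261 itself stood at -0.85. SLC39A11, a zinc transporter gene 5477 bases from LINC00511, had 14.2 and 14.5 CPM in SOX9-induced libraries, against 12.3 and 12.9 CPM in uninduced ones (log2 fold change 0.19, 95% CI -0.09 to 0.48, adjusted p = 0.615, edgeR).

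For the other 3 called genes the nearest coding gene was too scarce to test. MBL2, a serum lectin gene 199.8 kb from LINC02672, and BCHE, a cholinesterase gene whose body LINC01322 overlaps on the other strand, had 0 counts in every library. CDH5, the cadherin of endothelium 3740 bases from LINC00920, had at most 4 counts in a library. The nearest coding genes that could be tested were DKK1, a WNT inhibitor 654.6 kb from LINC02672, with a log2 fold change of -0.12 (adjusted p = 0.796, edgeR), and PDCD10, 1837 kb from LINC01322, with 0.05 (adjusted p = 0.898). TK2, a mitochondrial thymidine kinase gene 95.9 kb from LINC00920, had 0.39 (adjusted p = 0.260, edgeR).

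Conversely, 5 LINC genes stood next to a coding gene that was called for SOX9, and none of these 5 was itself called. These are 8.77% of the 57 pairs in which both genes were tested, against 3.22% of pairs of coding genes, a difference that was not tested. Where the nearest coding gene that passed the filter was taken instead, 7 of 70 were called, and no share of coding pairs was computed for that rule. The added ones were IRS2, 474.2 kb from LINC03061 (log2 fold change -0.45, adjusted p = 0.0160, edgeR), and MAP2K3, 113.0 kb from LINC02693 (-0.34, adjusted p = 0.0196). CDX2, the intestinal homeobox factor 5548 bases from LINC00543, had 125 and 132 CPM in SOX9-induced libraries, against 159 and 194 CPM in uninduced ones (log2 fold change -0.46, SE 0.09, adjusted p = 0.00418, edgeR). LINC00543 had 2.15 and 2.702 CPM in SOX9-induced libraries, against 3.08 and 2.98 CPM in uninduced ones, a log2 fold change of -0.33 (SE 0.31). Both thus had lower values with SOX9, but the standard error of LINC00543 was about as large as its change. MYEOV lies 107.8 kb from LINC02747. It had 33.6 and 34.5 CPM in SOX9-induced libraries, against 45.2 and 49.9 CPM in uninduced ones (log2 fold change -0.48, adjusted p = 0.00552, edgeR). LINC02747 itself stood at -0.38. Both coding calls were lost without replicate 1 of the induced SOX9 group (adjusted p = 0.0777 for CDX2 and 0.0863 for MYEOV, edgeR) or replicate 2 of the uninduced one (0.111 and 0.0923).

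The remaining called neighbours were higher with SOX9. NT5E, the ectonucleotidase CD73, is 59.4 kb from LINC02535 and had 123 and 120 CPM in SOX9-induced libraries, against 80.5 and 74.0 CPM in uninduced ones (log2 fold change 0.65, adjusted p = 3.15e-05, edgeR), while LINC02535 stood at 0.05. SUSD1, 1640 bases from LINC02977, had 22.7 and 24.2 CPM in SOX9-induced libraries, against 14.7 and 16 CPM in uninduced ones (log2 fold change 0.61, adjusted p = 0.0401, edgeR), while LINC02977 stood at -0.13. SAMD11, 64.5 kb from LINC01128, had 15 and 28 counts in SOX9-induced libraries, against 0 and 0 in uninduced ones, and 2 to 12 counts in the other 8 libraries. That call was lost without replicate 2 of the induced group or either uninduced SOX9 library (adjusted p of 0.133 to 0.292, edgeR), and the call of SUSD1 without any of the 4 libraries of the SOX9 line (0.101 to 0.304).

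On SOX9 induction, the LINC genes and their nearest coding genes had log2 fold changes of the same sign at a share close to that of pairs of coding genes. The median gap was 10.9 kb and the longest 1411 kb, and in 57 of 70 pairs both genes were tested. The log2 fold changes had the same sign in 31 of the 57 pairs, which is 54.4%, against 52.7% of 10450 pairs of a tested coding gene and its own nearest coding gene. Both genes were called in 0 of the 57 LINC pairs and in 25 of the coding pairs, which is 0.239%, so that 57 pairs are too few to compare. Same-sign pairs were 5 of 7 where the gene bodies overlapped, 11 of 22 up to 10 kb apart, 9 of 20 between 10 and 100 kb, and 6 of 8 beyond 100 kb. On M303 induction 22 of 57 pairs had the same sign (38.6%, against 49.8% of coding pairs), and on GFP induction 27 of 57 did (47.4%, against 50.8%). These shares are descriptions and were not tested.

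**Figure D4:**
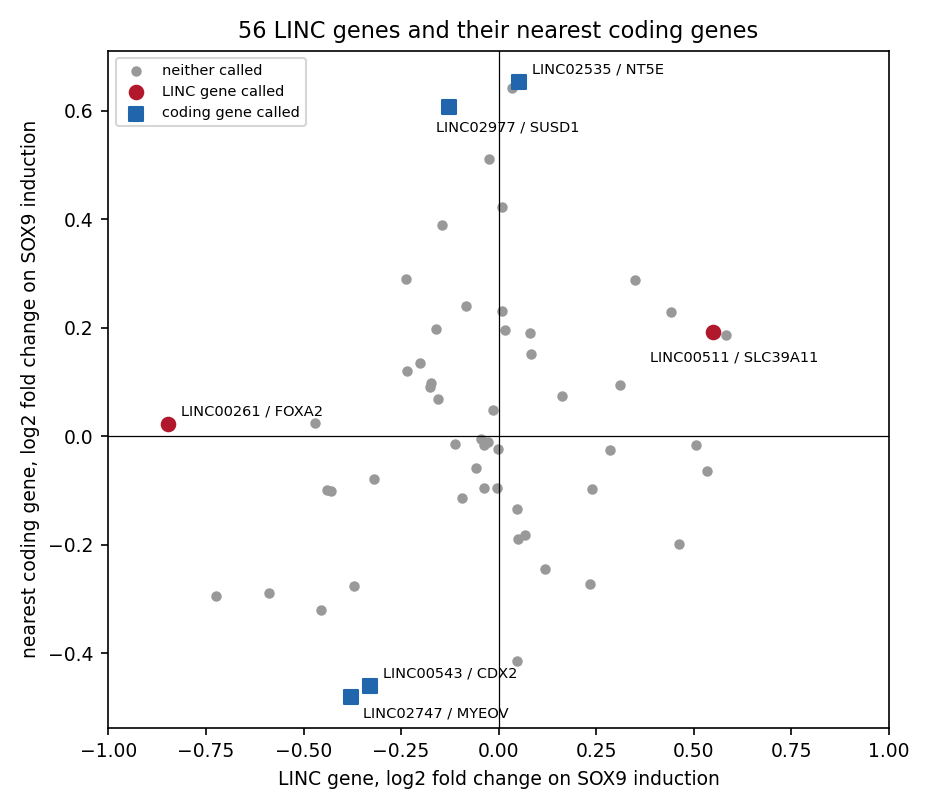
The log2 fold change on SOX9 induction of 56 LINC genes (horizontal) and of the nearest coding gene of each (vertical), with called LINC genes as red circles and called coding genes as blue squares. SAMD11 was left out because its uninduced SOX9 libraries are at 0 counts. No pair has both genes called, and the points fall in all 4 quadrants.

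Other long noncoding RNAs, which carry names of their own, were read as a comparison list of 51 symbols, of which 38 could be tested. None was called in any of the 8 comparisons, and for SOX9 induction 2 had an unadjusted p under 0.05 (5.26%, against 13.8% of all genes), DESeq2 called 0, and the smallest adjusted p was 0.138 (edgeR). NORAD, a noncoding RNA that binds Pumilio proteins and had the highest CPM of the list, averaged 405 CPM and had a log2 fold change of 0.01 (SE 0.07). MALAT1 stood at 0.24 (SE 0.24) and NEAT1 at -0.24 (SE 0.35), both nuclear RNAs. UCA1, known from urothelial cancer, had the smallest adjusted p for SOX9, at a log2 fold change of 0.29 (SE 0.10). Its log2 fold change was 0.36 (SE 0.10) on M303 induction and -0.18 (SE 0.10) on GFP induction. SOX9-AS1, annotated across SOX9 on the opposite strand, averaged 0.982 CPM and stood at -1.02 (SE 0.55, adjusted p = 0.441, edgeR), while SOX9 itself was at 1.00.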

How the data were processed

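The 12 RNA-seq libraries of LS180 cells, in 6 groups of 2, were read from a deposited table of raw counts per gene. STAR 2.7.0a placed the reads on hg38 and featureCounts counted them, per the submitters' processing notes. Per the file headers, featureCounts was version 2.0.1 and used the annotation of Ensembl release 101. Its recorded command has no paired-end or strand option and none for multi-mapping or shared reads. Each mate was therefore counted singly, antisense reads cannot be told apart, and reads mapping to several places or to exons of several genes were not counted. Totals were 31012775 to 48529770 counts per library. No column was left unused and 0 rows named no gene. A symbol was found for 42020 of 60671 genes (69.3%).

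The test was that of edgeR 4.0.16 (R 4.3.3), a robust quasi-likelihood F-test with TMM factors (0.981 to 1.02), filterByExpr and 1 mean per group over all 12 libraries, which leaves 6 residual degrees of freedom. Its biological coefficient of variation came to 10.6%. Calls required an adjusted p under 0.05 (Benjamini-Hochberg over 18219 genes), and adjusted p-values are from this test unless another tool is named. CPM values are counts divided by the TMM-scaled library totals. Standard errors were computed as the absolute log2 fold change over the square root of F. There were 8 comparisons, 3 of inductions, 3 of differences between them and 2 of uninduced lines. Coding genes were those of GENCODE release 29, or of RefSeq by symbol where that release lacks the ID. The nearest was the one with the smallest gap between gene bodies. Promoter windows are from RefSeq, GRCh38.p14.

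The genes described, the gene lists and the comparisons were chosen with earlier results of these data known. Named with values are LINC genes called in any comparison, the 10 highest by CPM and by CPM per kilobase, and the 3 on each side of the threshold. The extreme responses (6 at each end for SOX9, 3 at each end for M303 and for GFP) and LINC genes whose nearest coding gene was called are also named. Nearest coding genes are given for the called LINC genes, the 10 highest by CPM and some of the highest per kilobase. They are not given for most of the uncalled extreme responses or for the genes at the threshold. LINC00960, LINC00667, LINC00294 and LINC01232 were named after their values were seen, as were IRS2, MAP2K3, 3 of the intestinal markers, and NORAD, MALAT1, NEAT1, UCA1 and SOX9-AS1 of the comparison list. Same-numbered libraries of different groups did not deviate together, and the main fit did not pair them. Duplicates differed by 6.89 to 20.7 times the counting noise (chi-square per degree of freedom), so none was taken for 1 library deposited again. Alternatives were DESeq2 1.42.0, its size factors, no filter, a replicate block, each library left out, and other thresholds for the count. Counting noise is larger than the totals imply, since mates of a pair were counted singly.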

Additional observations from a re-analysis of the deposited data

Results flagged for a closer look

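The response of 2 LINC genes differed between inductions by the interaction test of edgeR. LINC02672 had a log2 fold change of -0.87 for SOX9 and -0.06 for M303, a difference of -0.81 (SE 0.18, adjusted p = 0.0371, edgeR), with both SOX9-induced libraries lower than both uninduced ones and the M303 groups overlapping. That call was lost when any of 7 libraries was left out (adjusted p of 0.0771 to 0.256, edgeR). Against GFP, where it stood at -0.06, LINC02672 differed by -0.80 (SE 0.18, adjusted p = 0.0257, edgeR), a call lost when any of 6 libraries was left out (0.0596 to 0.138). LINC01322 had a log2 fold change of -1.15 for SOX9 and 0.43 for GFP, a difference of -1.58 (SE 0.31, adjusted p = 0.0113, edgeR), with non-overlapping groups in both lines and in opposite directions. It was lost without replicate 2 of the induced SOX9 group (adjusted p = 0.0798, edgeR) or replicate 2 of the uninduced GFP group (0.0570), and the difference of LINC01322 from M303, at -1.10, did not pass the test (adjusted p = 0.217, edgeR). The uninduced SOX9 line had the highest LINC02672 values of all libraries, at 21.3 and 19.4 CPM, and the GFP line had 6.37 and 6.23 CPM of LINC01322 with doxycycline, against 4.74 and 4.63 CPM without. The part of these starting levels in the differences was not tested.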

How the results depend on the processing

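The number of LINC genes called for SOX9 was 5 with DESeq2, with its size factors and without a filter, and 2 to 5 when 1 library was left out. It was 2 without replicate 1 or without replicate 2 of the induced SOX9 group and 3 without replicate 1 of the uninduced one. For SOX9 against M303 it was 0 to 1 and for SOX9 against GFP 0 to 2 with 1 library left out. For SOX9 against GFP it was 3 with DESeq2 and 3 without a filter, where LINC00261 was added. With a threshold of 200 counts it was 1 for that comparison. Of LINC genes with 200 counts or more, 15 of 28 had the sign of their nearest coding gene. FOXA2, at 0.02 for SOX9 with all libraries, ran from -0.066 (without replicate 1 of the uninduced SOX9 group) to 0.11 (without its replicate 2) and was -0.035 without replicate 2 of the induced group, and was never called. Adding the 9 genes that were named LINC in GENCODE release 29 but have another name now, an alternative chosen after seeing the data, changed no count of calls.

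Replicate numbers are shared between groups, but same-numbered libraries did not deviate together (correlations of -0.079 to 0.052). The labels do not state whether they were handled together, which these correlations cannot settle. With the replicate as a block, 4 LINC genes were called for SOX9, LINC00920 being lost (adjusted p = 0.0599, edgeR), and 0 for SOX9 against M303, where LINC02672 was lost (adjusted p = 0.0663, edgeR). Leaving out a library of a pair leaves 1, which is assumed to vary like the other groups. Depth limits the 31 genes under 200 counts most.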
